A study of Mus musculus with 15 samples.

Results

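Lung natural helper cells of papain-treated mice labelled 3'UTRKO were set against those of papain-treated control mice, in 3 of the 15 libraries of a mouse lung RNA sequencing series. The members were chosen by their sample labels: 1 library is titled papain 3'UTRKO, and 2 libraries, numbered 1 and 2, are titled papain with no genotype. The 2 libraries of natural helper cells from naive mice are given beside them. All 5 carry the strain label C57BL6/J. Papain was given into the nose, 50 ug per mouse over 3 days, to the 3'UTRKO mice and to the papain controls, and the naive mice had no treatment. Cells were sorted as lineage-negative and positive for Thy1.2, the IL-7 receptor alpha chain and CD25, and 10 ng of RNA went into each poly(A)-selected library, per the labels' protocols. The rest of the series holds basophils and eosinophils.

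No label says which gene's 3' untranslated region the term 3'UTRKO refers to. As background from outside the labels, a published mouse line of this name lacks an enhancer in the 3' untranslated region of Il4 that acts in basophils. Whether the library comes from that line was taken from no file, and a level of Il4 summed over the gene does not show whether the region is deleted. The labels also do not say whether the libraries are separate animals or pools, and the 3'UTRKO mice have 1 library, so no test was made and no value below is a p-value.

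Natural helper cells, also called group 2 innate lymphoid cells, are lymphocytes without antigen receptors that live in tissues such as the lung. The protease papain damages the airway epithelium, which releases IL-33, and IL-33 binds its receptor ST2 on these cells. They then divide and secrete IL-5, the growth factor of eosinophils, and IL-13, which acts on epithelium and smooth muscle. Basophil IL-4 is known to add to this response in the papain model.

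Values are FPKM, fragment counts scaled by transcript length and library size. They were deposited as whole numbers and keep no read depth, so counting error cannot be stated. The FPKM of the 3'UTRKO library summed to 474584, against 415158 and 452079 in papain controls 1 and 2, and 11739 genes were above 0, against 11524 and 12149. Ribosomal protein genes held 28.2% of the 3'UTRKO total, against 22.6% and 22.7%, and small RNA genes held 17.9%, against 14.1% and 11.7%. The comparison covered 6706 autosomal genes with a mean of at least 5 FPKM over the 3 libraries. Across these genes the 3'UTRKO library was at least 2-fold from control 1 in 642 (9.57%) and from control 2 in 843 (12.6%), while the 2 controls were that far apart in 144 (2.15%). The 2 naive libraries were that far apart in 513 (7.65%).

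Defining markers of natural helper cells were high in the 3'UTRKO library. Gata3, the transcription factor of type 2 lymphocytes, stood at 267 FPKM in the 3'UTRKO library, against 201 and 229 FPKM in papain controls. Il1rl1, which encodes ST2, stood at 437 FPKM, against 436 and 492 FPKM, and Il7r at 229 FPKM, against 193 and 151 FPKM. These levels do not separate the 3'UTRKO library from the controls by more than 2-fold. Of the 14 natural helper cell markers compared, 1 (Il13) was past 2-fold lower (7.14%, against 5.58% of all genes). Rora, Id2 and Klrg1 were within 2-fold of the controls. The basophil genes Mcpt8, Fcer1a, Ms4a2 and Prss34 were listed at 0 in the 3'UTRKO library and in both controls, and so were the mast cell proteases Cma1, Tpsb2 and Mcpt4. Other members of these 2 lists were above 0. Cpa3 stood at 4 FPKM, against 7 and 5 FPKM, Il3ra at 10 FPKM, against 11 and 13 FPKM, and Kit at 108 FPKM, against 89 and 82 FPKM. The sum over 11 basophil markers was 24 FPKM, against 29 and 37 FPKM. Over 8 mast cell markers it was 114 FPKM, against 97 and 88 FPKM.

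A gene is called here when its FPKM + 1 in the 3'UTRKO library lay at least 2-fold above the higher control or 2-fold below the lower control. By that rule 111 genes (1.66%) were higher and 374 genes (5.58%) were lower in 3'UTRKO cells. By any amount, 1479 genes (22.1%) lay above both controls, 3772 (56.2%) lay below both, and 1455 (21.7%) lay within their range. The median gene differed by -0.24 on the log2(FPKM + 1) scale, 3'UTRKO minus the mean of the controls, so list medians below are also given relative to that shift. The balance of higher and lower calls differed between scalings, of which median-ratio scaling and quantile normalization set the median gene near 0 by construction. Higher and lower calls were 22.9% and 77.1% of 485 as deposited, 19.1% and 80.9% after scaling to the same total (93 higher, 394 lower), 49.9% and 50.1% after median-ratio scaling (196 higher, 197 lower) and 44.4% and 55.6% after quantile normalization (180 higher, 225 lower). One control library also sets the counts: with control 1 left out 123 genes were higher and 726 lower, and with control 2 left out 207 were higher and 440 lower. Among the genes just past the rule was Eif4e, the cap-binding translation factor, at 13 FPKM in the 3'UTRKO library, against 27 and 28 FPKM in controls. Just short of it was Zfp36l2, an RNA-binding protein gene, at 208 FPKM, against 97 and 104 FPKM.

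**Figure D1:**
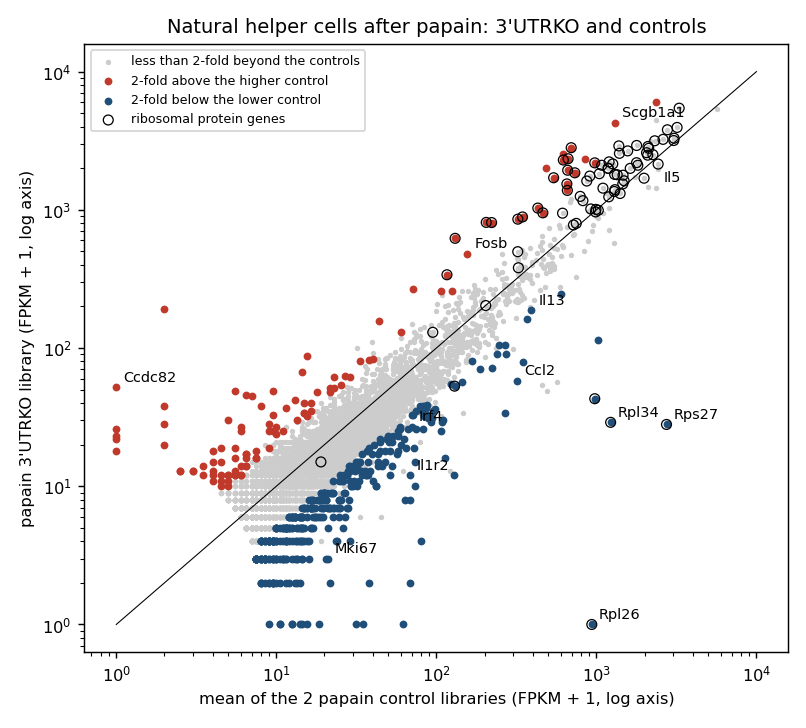
Each point is 1 of the 6706 genes compared, with the mean FPKM + 1 of the 2 papain control libraries on the x axis and the FPKM + 1 of the papain 3'UTRKO library on the y axis, both on log axes, and a line of equal values. Red points are the 111 genes at least 2-fold above the higher control, blue points the 374 at least 2-fold below the lower control, and open circles mark ribosomal protein genes, 4 of which lie far below the line.

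The cytokines that define natural helper cells were lower in the 3'UTRKO library. Il13 stood at 186 FPKM in the 3'UTRKO library, against 407 and 377 FPKM in papain controls, 2.02-fold below the lower control and within the naive libraries at 93 and 218 FPKM. Il5 stood at 1443 FPKM, against 2379 and 2350 FPKM, and at 501 and 2283 FPKM in naive cells. Both genes therefore lay below both controls, by amounts larger than the gap between the controls, and only Il13 was past 2-fold. In both genes, however, the 2 naive libraries lay further apart than the 3'UTRKO library lay from the nearer control. The difference from the mean of the controls was -0.83 for Il13 and -0.48 for Il5 relative to all genes compared. After median-ratio scaling, quantile normalization or scaling to the same total, Il13 was short of 2-fold, and under quantile normalization Il5 was past it. Bulk RNA cannot tell fewer cytokine-producing cells from less RNA per cell.

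Other cytokines lay on both sides of the controls: of the 15 type 2 and growth factor cytokines compared, 9 lay below both, 3 above both and 3 within their range. Il4 stood at 23 FPKM in the 3'UTRKO library, against 20 and 24 FPKM in papain controls and 19 and 25 FPKM in naive cells, so its level lay within the range of the controls. Csf2, which encodes GM-CSF, stood at 353 FPKM, against 242 and 274 FPKM, above both controls. Areg, an epidermal growth factor family ligand that natural helper cells use in tissue repair, stood at 373 FPKM, against 524 and 503 FPKM. Il6 stood at 25 FPKM, against 32 and 58 FPKM, Il2 at 28 FPKM, against 23 and 15 FPKM, and Il9 at 6 FPKM, against 2 and 4 FPKM. Penk, which encodes the precursor of enkephalin peptides, was the largest difference of the list at 5 FPKM, against 20 and 32 FPKM, 3.50-fold below the lower control. Of the 15, 2 were past 2-fold lower (Il13 and Penk, against 5.58% of all genes) and 0 higher, and their median difference was -0.30, or -0.07 relative to all genes compared. Without control 1, 4 were past 2-fold lower and the relative median was 0.04, and without control 2, 2 were lower and it was -0.23.

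Of the 23 pathway lists, the cell cycle list had the most members past 2-fold. Of 41 listed genes in the table, 23 had a mean of 5 FPKM or more, and 20 of these 23 (87.0%) were at least 2-fold below the lower control, against 5.58% of all genes compared. None was 2-fold higher. Mki67, the proliferation marker Ki-67, stood at 2 FPKM in the 3'UTRKO library, against 23 and 17 FPKM in papain controls and 4 and 5 FPKM in naive cells. Top2a, the topoisomerase that untangles replicated DNA, stood at 3 FPKM, against 34 and 22 FPKM and, in naive cells, 4 and 8 FPKM. Birc5, the mitotic protein survivin, stood at 2 FPKM, against 20 and 19 FPKM and, in naive cells, 6 and 12 FPKM. In each of these genes the 3'UTRKO library was below all 4 other natural helper cell libraries.

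The difference covered replication as well as mitosis. Rrm2, a subunit of the ribonucleotide reductase that makes DNA precursors, stood at 3 FPKM in the 3'UTRKO library, against 26 and 20 FPKM in papain controls. Mcm6, a subunit of the replicative helicase, stood at 11 FPKM, against 38 and 35 FPKM. Stmn1, a microtubule regulator of dividing cells, stood at 24 FPKM, against 106 and 106 FPKM. All 6 helicase subunits compared, Mcm2 to Mcm7, were past 2-fold lower, of which Mcm2 and Mcm3 were not after median-ratio scaling and Mcm3 was not under quantile normalization.

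A few cell cycle genes stood apart. Pcna, the sliding clamp of DNA polymerase, stood at 67 FPKM in the 3'UTRKO library, against 142 and 129 FPKM, short of 2-fold at 1.91-fold. Tk1 stood at 12 FPKM, against 16 and 18 FPKM. Tyms, which makes thymidylate, lay above both controls at 22 FPKM, against 13 and 13 FPKM. The other 18 listed genes, among them Cdk1 and Aurka, were too low to be compared: none reached more than 2 FPKM in the 3'UTRKO library or more than 6 FPKM in a control. The median difference of the 23 genes was -1.64, or -1.41 relative to all genes, with 17 called lower after median-ratio scaling, 18 under quantile normalization, 20 without control 1 and 21 without control 2. Of the 23, 14 also lay below both naive libraries, 6 lay within their range and 3 lay above both. The distance between papain controls and naive cells in these genes rests on the same 2 control libraries.

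**Figure D2:**
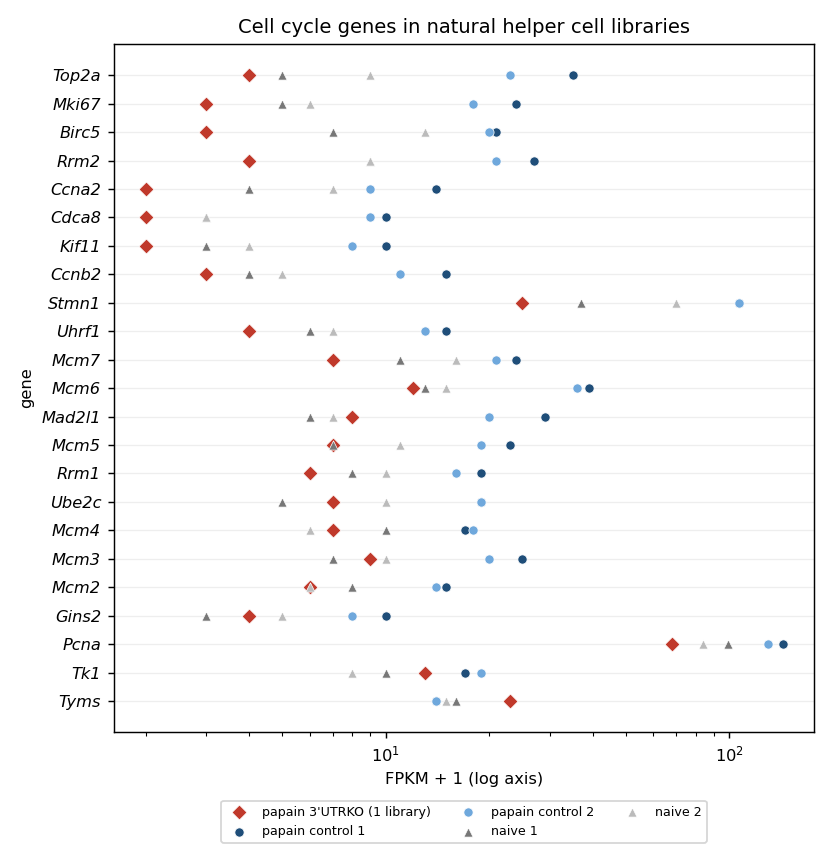
FPKM + 1 on a log axis for the 23 cell cycle genes compared, 1 gene per line ordered by the 3'UTRKO difference, with a diamond for the papain 3'UTRKO library, circles for papain controls 1 and 2 and triangles for naive libraries 1 and 2. The diamond lies left of both circles in 22 genes and right of both only for Tyms, and for Mki67, Top2a and Birc5 it also lies left of both triangles.

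Il1r2, Tnfrsf4 and Tnfsf4 were past 2-fold lower in the 3'UTRKO library. Il1r2, the decoy receptor of IL-1, stood at 11 FPKM in the 3'UTRKO library, against 66 and 68 FPKM in papain controls and 6 and 2 FPKM in naive cells, 5.58-fold below the lower control. Tnfrsf4, which encodes OX40, stood at 17 FPKM, against 41 and 52 FPKM and, in naive cells, 7 and 9 FPKM. Its ligand gene Tnfsf4 (OX40L), by which natural helper cells stimulate T cells, stood at 37 FPKM, against 81 and 76 FPKM and, in naive cells, 6 and 8 FPKM. In each of these 3 genes the 3'UTRKO library lay between the papain controls and the naive libraries. Other receptor genes with higher levels in papain controls than in naive cells were mixed. Il18r1 also lay between, at 29 FPKM, against 49 and 46 FPKM and, in naive cells, 22 and 10 FPKM. So did Il2ra, at 168 FPKM, against 228 and 213 FPKM and, in naive cells, 85 and 128 FPKM. Il1rl1 lay within the range of the controls. Il17rb, a chain of the IL-25 receptor, lay above both controls at 122 FPKM, against 91 and 65 FPKM and, in naive cells, 64 and 53 FPKM.

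Of 14 costimulation and checkpoint genes compared, Tigit alone was past 2-fold (7.14% lower, against 5.58% of all genes). The list's median was -0.29, or -0.05 relative to all genes. Tigit stood at 34 FPKM in the 3'UTRKO library, against 70 and 77 FPKM in papain controls and 11 and 14 FPKM in naive cells, 2.03-fold below the lower control. Ctla4 stood at 23 FPKM, against 45 and 72 FPKM, short of 2-fold. Pdcd1, which encodes PD-1, stood at 214 FPKM, against 328 and 309 FPKM. Klrg1, an inhibitory receptor, stood at 68 FPKM, within the controls' 72 and 58 FPKM. Without control 1, 4 of the 14 were past 2-fold lower. Neither Tigit nor Tnfsf4 was past 2-fold after median-ratio scaling or quantile normalization. Of 15 TNF superfamily genes, 2 were past 2-fold lower (13.3%, against 5.58% of all genes), 3 without control 1 and 4 without control 2. That list's median difference was -0.03 (0.21 relative to all genes). Fas, the death receptor, stood at 8 FPKM, against 16 and 31 FPKM, and Icos at 152 FPKM, against 215 and 238 FPKM.

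Cytokine receptors lay on both sides of the controls. Of 26 compared, 16 lay below both and 7 above both, against 56.2% and 22.1% of all genes, and 3 lay within their range. The 26 compared had a median difference of -0.19 (0.05 relative to all genes), and without control 1, 4 were past 2-fold lower and 1 higher. Against both controls 3 were past 2-fold lower (11.5%, against 5.58% of all genes) and none higher. Besides Il1r2 these were Csf2rb2, a beta chain in the IL-3 receptor, at 7 FPKM in the 3'UTRKO library, against 15 and 17 FPKM in controls, and Osmr, the oncostatin M receptor, at 4 FPKM, against 9 and 9 FPKM. Both Csf2rb2 and Osmr were short of 2-fold after median-ratio scaling and quantile normalization. Il2ra, which encodes CD25 and served in the sort, stood at 168 FPKM, against 228 and 213 FPKM. Il4ra, the receptor chain shared by IL-4 and IL-13, lay above both controls at 94 FPKM, against 59 and 71 FPKM. Il10ra did so as well, at 76 FPKM, against 46 and 48 FPKM.

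Among 22 transcription factors of type 2 lymphocytes, Irf4 alone was past 2-fold (4.55% lower, against 5.58% of all genes). Irf4, which is induced by antigen receptor and cytokine signals, stood at 26 FPKM in the 3'UTRKO library, against 65 and 73 FPKM in papain controls and 5 and 7 FPKM in naive cells. Rora, needed for the development of natural helper cells, stood at 222 FPKM, against 200 and 184 FPKM, and Gfi1 at 24 FPKM, against 12 and 15 FPKM. Id3 stood at 12 FPKM, against 20 and 27 FPKM. The list's median was -0.04, or 0.19 relative to all genes. Without control 1, 2 were past 2-fold lower, and without control 2, 1 was lower and 1 higher. Among 16 STAT5 targets and SOCS genes none was past 2-fold, while 1 was lower without control 1 and 1 higher without control 2 (median -0.10 and 0.21 relative to all genes). In that list the survival gene Bcl2 lay above both controls at 47 FPKM, against 25 and 29 FPKM, near the naive libraries at 49 and 38 FPKM. Bcl2 was past 2-fold higher after median-ratio scaling and quantile normalization. In the Bcl2 family, Bak1, a pore-forming cell death gene, was past 2-fold lower at 7 FPKM, against 17 and 19 FPKM.

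Immediate early genes, which are transcribed within minutes of a stimulus, leaned the other way. Of 31 compared, 20 lay above both controls and 3 below both, against 22.1% and 56.2% of all genes. Past 2-fold were 4 higher (12.9%, against 1.66% of all genes) and 2 lower (6.45%, against 5.58%). Fosb stood at 479 FPKM in the 3'UTRKO library, against 156 and 154 FPKM in papain controls and 634 and 354 FPKM in naive cells. Fos stood at 257 FPKM, against 123 and 126 FPKM and, in naive cells, 592 and 204 FPKM. Egr1 stood at 62 FPKM, against 23 and 29 FPKM and, in naive cells, 103 and 59 FPKM. For these 3 transcription factor genes the 3'UTRKO library was within the range of the naive libraries and above both papain controls.

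Egr3 was the fourth at 81 FPKM in the 3'UTRKO library, against 40 and 34 FPKM in controls. Zfp36, which encodes the mRNA-destabilizing protein tristetraprolin, stood at 148 FPKM, against 58 and 81 FPKM, past 2-fold after median-ratio scaling, under quantile normalization and without control 2. The 2 lower genes were Dusp4, a phosphatase of MAP kinases, at 18 FPKM, against 68 and 75 FPKM and, in naive cells, 5 and 6 FPKM, and Fosl1, at 4 FPKM, against 10 and 15 FPKM. Scaling to the same total left Fos and Egr3 short of 2-fold, and median-ratio scaling left Fosl1 short of it. The list's median was 0.37, or 0.61 relative to all genes. Without control 1 the median was 0.14 with 4 higher and 3 lower, and without control 2 it was 0.51 with 6 higher and 2 lower.

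**Figure D3:**
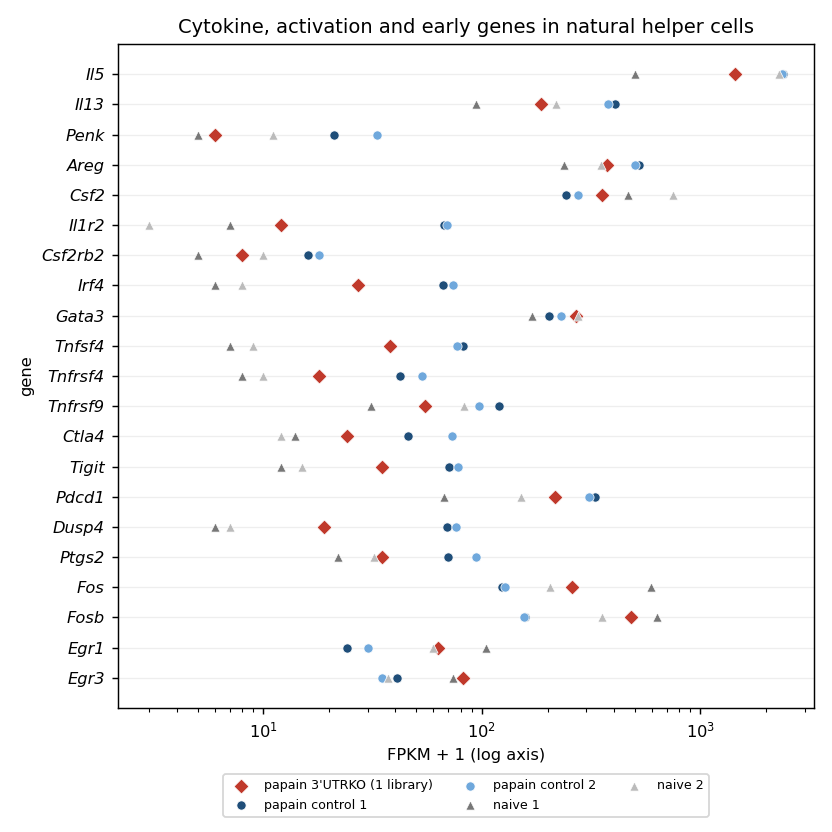
FPKM + 1 on a log axis for 21 cytokine, receptor, checkpoint and early genes, 1 gene per line, with a diamond for the papain 3'UTRKO library, circles for papain controls 1 and 2 and triangles for naive libraries 1 and 2. For Il1r2, Irf4, Tnfsf4, Tnfrsf4, Tigit and Dusp4 the diamond lies between the triangles and the circles, and for Fos, Fosb and Egr1 it lies right of both circles and within the span of the triangles.

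Chemokines held 4 genes past 2-fold lower among 12 compared (33.3%, against 5.58% of all genes). Ccl2, which attracts monocytes, stood at 57 FPKM in the 3'UTRKO library, against 299 and 334 FPKM in papain controls and 122 and 138 FPKM in naive cells. Ccl7 stood at 30 FPKM, against 83 and 104 FPKM and, in naive cells, 58 and 62 FPKM. Cxcl1, a neutrophil attractant, stood at 104 FPKM, against 219 and 269 FPKM and, in naive cells, 160 and 140 FPKM. In these 3 genes the 3'UTRKO library was below all 4 other natural helper cell libraries.

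The fourth chemokine was Ccl6, at 7 FPKM in the 3'UTRKO library, against 22 and 113 FPKM in controls that themselves lay far apart. Ccl11, the eosinophil attractant eotaxin, stood at 31 FPKM, against 65 and 57 FPKM. Ccl1, the ligand of CCR8, stood at 613 FPKM, within the controls' 457 and 625 FPKM, and Ccr8 at 399 FPKM, against 341 and 334 FPKM. The median of the 12 chemokines was -0.94, or -0.71 relative to all genes, and Cxcl1 was short of 2-fold after median-ratio scaling and quantile normalization. Without control 1, 6 were past 2-fold lower. Among 11 chemokine and chemoattractant receptors none was past 2-fold, and the median lay 0.04 above that of all genes.

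Markers of fibroblasts moved with these chemokines. Of 7 fibroblast genes compared, 6 (85.7%, against 5.58% of all genes) were past 2-fold lower in the 3'UTRKO library, with a median difference of -1.57 (-1.34 relative to all genes), and 5 were past it after median-ratio scaling or quantile normalization. Mgp, matrix Gla protein, stood at 33 FPKM, against 183 and 352 FPKM in papain controls and 152 and 124 FPKM in naive cells. The collagen genes Col1a1, Col1a2, Col3a1 and Col6a1 stood between 6 and 12 FPKM, against 20 to 44 FPKM in the controls. Summed over the 8 autosomal fibroblast markers, the 3'UTRKO library held 186 FPKM, against 521 and 698 FPKM in papain controls and 479 and 343 FPKM in naive cells. Ctgf, which encodes a matricellular protein, stood at 11 FPKM, against 173 and 83 FPKM. Thbs1, which encodes another and was singled out after its values were seen, stood at 78 FPKM, against 388 and 307 FPKM. The part of fibroblast RNA in the values of Ccl2, Ccl7, Ccl11 and Cxcl1 was not tested.

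Airway epithelial genes went the opposite way and varied between the controls. Scgb1a1, the secretoglobin of club cells, stood at 4273 FPKM in the 3'UTRKO library, against 681 and 1921 FPKM in papain controls and 87 and 1809 FPKM in naive cells. Scgb3a1 stood at 268 FPKM, against 7 and 133 FPKM, and Scgb3a2 at 157 FPKM, against 12 and 74 FPKM. Of the 7 epithelial markers compared, these 3 were past 2-fold higher (42.9%, against 1.66% of all genes). Sftpc, the surfactant protein of alveolar type II cells, was past 2-fold lower at 3 FPKM, against 26 and 19 FPKM. Scgb1a1 was short of 2-fold under quantile normalization, and without control 2 a total of 5 were past 2-fold higher. The sum over 13 epithelial markers was 4780 FPKM in the 3'UTRKO library, against 745 and 2213 FPKM. Cyp2f2, a club cell cytochrome, stood at 66 FPKM, against 5 and 22 FPKM, and Ltf, lactoferrin, at 48 FPKM, against 0 and 9 FPKM.

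Markers of macrophages and neutrophils differed mainly between the 2 controls, and those of endothelium and T cells did so less. The sum over 10 alveolar macrophage markers was 118 FPKM in the 3'UTRKO library, against 174 and 991 FPKM in controls 1 and 2, and the sum over 13 monocyte and macrophage markers was 135 FPKM, against 86 and 480 FPKM. Lyz2, the macrophage lysozyme, stood at 85 FPKM, against 60 and 343 FPKM. The 5 monocyte and macrophage markers compared therefore had a median difference of 0.74 without control 2 and -1.64 without control 1. The sum over 9 neutrophil markers was 27 FPKM, against 15 and 111 FPKM. The sum over 11 endothelial markers was 96 FPKM, against 110 and 96 FPKM, and 3 of them were compared. Stab2 lay above both controls at 80 FPKM, against 72 and 45 FPKM, and Pecam1 stood at 12 FPKM, against 16 and 14 FPKM. Ccl21a, the chemokine of lymphatic endothelium, was past 2-fold lower at 1 FPKM, against 11 and 15 FPKM and, in naive cells, 103 and 102 FPKM. The other 8, among them Cdh5 and Lyve1 at 0 in the 3'UTRKO library, reached no more than 5 FPKM in a control. The sum over 9 T cell markers was 153 FPKM, against 159 and 193 FPKM in papain controls and 262 and 272 FPKM in naive cells.

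The list of IL-4 and IL-13 response genes gave no gene past 2-fold among 14 compared, with a median difference of -0.49 (-0.26 relative to all genes). Not every member is a known target of STAT6, since the list holds Stat6 itself and also Cish, which is on the STAT5 list too. One control decides that direction: without control 1 the relative median was -0.28 with 4 genes past 2-fold lower, and without control 2 it was 0.10 with 1 higher and 1 lower. Arg1, arginase 1, which natural helper cells express, stood at 218 FPKM in the 3'UTRKO library, against 297 and 319 FPKM in papain controls and 133 and 90 FPKM in naive cells. Retnla stood at 105 FPKM, within the controls' 98 and 261 FPKM, and above the 1 and 4 FPKM of naive cells. Chi3l3, a chitinase-like protein abundant in alveolar macrophages, stood at 53 FPKM, against 94 and 823 FPKM. For Retnla and Chi3l3 the controls lay further apart than the 3'UTRKO library lay from the nearer one.

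The genes around Il4 on chromosome 11 were read for differences near the locus, without regard to distance in bases. Of the 23 listed genes within 12 places of Il4, counting Il4 itself, 12 were compared. Of these 12, 1 was past 2-fold higher and 1 (Il13) lower, against 1.66% and 5.58% of all genes. Their median was -0.17, or 0.07 relative to all genes. Rad50, which lies between Il13 and Il5 and whose introns hold a control region of the type 2 cytokine genes, stood at 18 FPKM in the 3'UTRKO library, against 20 and 17 FPKM in papain controls. Kif3a, the next gene on the other side of Il4, stood at 2 FPKM, against 2 and 2 FPKM. Zcchc10, 9 places away, was the higher one at 47 FPKM, against 16 and 18 FPKM and, in naive cells, 49 and 39 FPKM. Irf1 stood at 37 FPKM, against 25 and 40 FPKM, and Il3 at 22 FPKM, against 30 and 25 FPKM.

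Genes of protein folding in the endoplasmic reticulum lay below the controls almost throughout. Of 22 unfolded protein response genes compared, 21 lay below both controls and none above both, against 56.2% and 22.1% of all genes. Their median difference was -0.80, which is -0.56 relative to all genes. Pdia4, a disulfide isomerase, stood at 11 FPKM in the 3'UTRKO library, against 27 and 40 FPKM in papain controls and 14 and 11 FPKM in naive cells. Hspa5, the chaperone BiP, stood at 197 FPKM, against 297 and 470 FPKM and, in naive cells, 176 and 238 FPKM. Hsp90b1, the chaperone GRP94, stood at 99 FPKM, against 190 and 283 FPKM and, in naive cells, 106 and 104 FPKM. Only Pdia4 and Sdf2l1 were past 2-fold (9.09%, against 5.58% of all genes), Sdf2l1 not after median-ratio scaling or quantile normalization. The count depends on the control, with 11 past 2-fold when control 1 is left out and 2 when control 2 is left out.

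Metabolic genes showed smaller distances. Of 17 glycolysis genes, 3 were past 2-fold lower (17.6%, against 5.58% of all genes). The list's median difference was -0.42 (-0.18 relative to all genes). Pgam1 stood at 21 FPKM in the 3'UTRKO library, against 62 and 61 FPKM in papain controls and 15 and 17 FPKM in naive cells. Tpi1 stood at 17 FPKM, against 45 and 42 FPKM, and the lactate exporter Slc16a3 at 6 FPKM, against 14 and 14 FPKM. After median-ratio scaling or quantile normalization, Pgam1 alone was past 2-fold. Of 24 oxidative phosphorylation genes, 22 lay below both controls, against 56.2% of all genes. Their median difference was -0.52 (-0.29 relative to all genes). Past 2-fold lower were 2 (8.33%, against 5.58% of all genes). These were Cox5a at 54 FPKM, against 110 and 134 FPKM, and Ndufv2 at 13 FPKM, against 27 and 29 FPKM. Neither was past 2-fold after median-ratio scaling or quantile normalization, and 4 genes were past it without control 1. Cholesterol synthesis gave 1 of 12 past 2-fold lower (8.33%, against 5.58% of all genes) and 0 after median-ratio scaling. It was Sc4mol, at 2 FPKM, against 5 and 8 FPKM. Without control 1, 2 were lower, and without control 2, 1 was lower and 1 higher.

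The remaining pathway lists gave few calls. Lower calls were 11.8% of interferon response, 14.3% of eicosanoid and 11.8% of adhesion genes compared, against 5.58% of all genes. Of 17 interferon response genes, Isg15 (5 FPKM in the 3'UTRKO library, against 11 and 12 FPKM in controls) and Ifi27l2a (16 FPKM, against 34 and 33 FPKM) were past 2-fold lower, and neither was after median-ratio scaling or quantile normalization. Of 7 eicosanoid genes, Ptgs2, cyclooxygenase 2, was past 2-fold lower at 34 FPKM, against 69 and 93 FPKM, though not under those scalings. Of 17 adhesion genes, Itgb1, the integrin beta 1 chain, stood at 22 FPKM, against 52 and 53 FPKM, and Itgae, the integrin CD103, at 8 FPKM, against 17 and 19 FPKM and, in naive cells, 3 and 1 FPKM. Both integrin genes were short of 2-fold under the same scalings. Without control 1 the lower calls were 4 interferon response, 2 eicosanoid and 4 adhesion genes. Among 14 antigen presentation and 18 T cell receptor signalling genes none was past 2-fold.

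Ribosomal protein genes lay mostly above the controls, and a few lay far below them. Of 75 compared, 61 lay above both controls and 9 below both, against 22.1% and 56.2% of all genes. Past 2-fold, 17 were higher and 5 lower, against 1.66% and 5.58% of all genes. The share of lower calls was thus near that of all genes. Differences ran from -9.87 to 2.25, where the 2 controls were never more than 0.30 apart. Rpl26 was listed at 0 in the 3'UTRKO library, against 901 and 969 FPKM in papain controls and 328 to 1626 FPKM over the other 14 libraries of the series. Rps27 stood at 27 FPKM, against 2704 and 2778 FPKM, and Rpl34 at 28 FPKM, against 1231 and 1222 FPKM. Rpl21 stood at 621 FPKM, against 123 and 137 FPKM, and Rpl23a at 2814 FPKM, against 665 and 725 FPKM. In 34 of the 75 genes the 3'UTRKO library was above all 14 other libraries and in 4 it was below all of them, against 336 and 212 of the 6631 other genes.

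These genes have many near-identical copies in the genome, and how reads were shared among them is not given in the sources used here, so their values are uncertain. Whether the 3'UTRKO library was read and annotated in the same way as the others is not given either. The median of the 75 was 0.45 as deposited, 0.70 after median-ratio scaling and 0.09 under quantile normalization, where 12 were past 2-fold higher and 4 lower. For the shorter list of 31 that median turned to -0.05 under quantile normalization. With all ribosomal protein genes left out, 94 genes were higher and 369 lower.

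**Figure D4:**
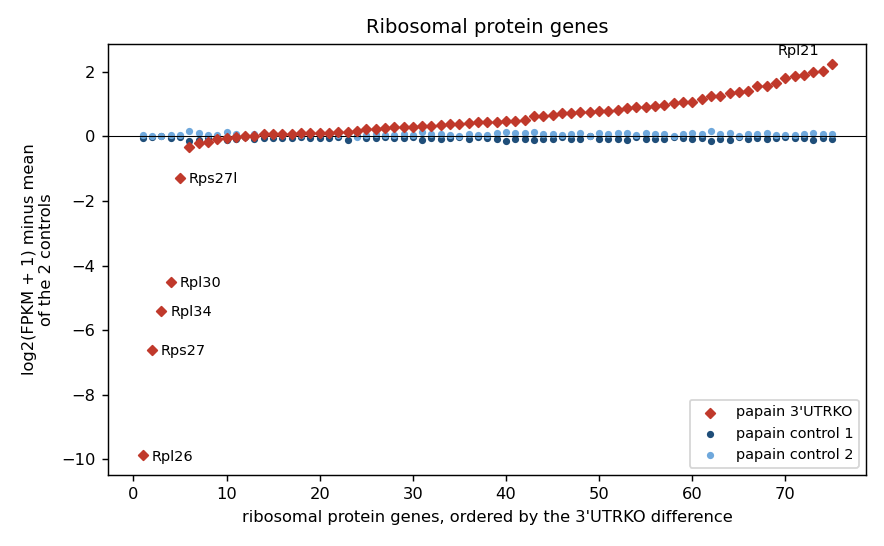
For each of the 75 ribosomal protein genes, ordered along the x axis by the 3'UTRKO difference, the y axis gives log2(FPKM + 1) minus the mean of the 2 papain controls, with diamonds for the papain 3'UTRKO library and circles for controls 1 and 2. The circles stay close to 0 while the diamonds run from -9.87 (Rpl26) to 2.25 (Rpl21).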

How the data were processed

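RNA of 15 libraries was sequenced, and 3 of them are compared here. The deposited table holds 1 score per gene and library, which the submitters' processing notes (TopHat 1.4.0, Cufflinks 1.3.0, mm9) and the values identify as FPKM that the authors rounded to whole numbers. The annotation, filters and rounding are not given in the sources used here.

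From 21110 genes, symbols turned into dates (25), small RNA genes (508), genes of chromosomes X and Y (954) and symbols without a chromosome (151) were left out. Chromosomes and gene order came from reference tables of another build, by symbol (18864) or older symbol (2095), so no coordinates are given. Of 19561 genes left, 12855 had a mean under 5 FPKM in the 3 libraries and 6706 were compared. Differences are of log2(FPKM + 1). Folds use FPKM + 1 against the nearer control. With 1 library on one side, no test was made.

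Genes were named by rule. The rule took up to 15 per direction by distance from the nearer control (mean of at least 10 FPKM), not all of them given here. It also took the leading members of each of 38 lists (23 pathway, 15 marker), markers, and a fixed set of natural helper cell genes. Others are examples chosen after their values were seen. Members and lists were chosen with earlier results of these data known. The calling rule was run on simulated libraries with equal noise and no shift between them. The deposited libraries differ from that setting, so the run gives no error rate for them. Python 3.11.15, pandas 2.3.3 and numpy 2.4.6 were used.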

Additional observations from a re-analysis of the deposited data

How the results depend on the processing

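The counts of genes past the rule (111 higher, 374 lower in 3'UTRKO cells) moved by over 1.5 times under several settings. Higher and lower genes numbered 340 and 1179 at 1.5-fold, 41 and 105 at 3-fold, 72 and 167 with a pseudocount of 5, 50 and 126 with a mean of at least 20 FPKM, 729 and 1006 with no filter on low values, 196 and 197 after median-ratio scaling, and 180 and 225 under quantile normalization. The thresholds and filters change which genes can be called by construction; for the scalings the cause was not tested. Leaving out 1 control gave 123 to 207 higher and 440 to 726 lower, and every gene called against both controls stays called against 1 by construction. With a pseudocount of 0.5, the same total, small RNA genes or unplaced symbols kept, and, in settings chosen after seeing the data, ribosomal protein genes or markers of other cells left out, the counts were within 1.5 times. Of 97 named genes past 2-fold, 74 stayed past it after median-ratio scaling, 74 under quantile normalization, 89 at the same total and 73 with a pseudocount of 5, and none changed sign. With a pseudocount of 5 the genes short of it were Csf2rb2, Osmr, Mcm2, Mcm3, Mcm4, Gins2, Fosl1, Egr1, Egr3, Isg15, Ifi27l2a, Slc16a3, Ndufv2, Cox5a, Sdf2l1, Sc4mol, Ptgs2, Tigit, Tnfsf4, Bak1, Itgae, Marco, Scgb3a1 and Lum. No paired analysis was possible because the 3'UTRKO mice have 1 library. Depth is unknown, and low genes lie near the rounding step of 1 FPKM.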

Other observations

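A few genes outside the lists stood far from every other library. They were among the genes named by distance from the nearer control, and were picked from these after their values were seen. Ccdc82 was at 51 FPKM in the 3'UTRKO library and listed at 0 in both papain controls and in the 12 other libraries. Wdr89 was at 1 FPKM, against 64 and 71 FPKM in papain controls and 23 to 140 FPKM over the 14 other libraries, and Akr1b3, an aldose reductase gene, was listed at 0, against 29 and 32 FPKM and 8 to 32 FPKM over the 14. Tomm20, a mitochondrial import receptor, was at 15 FPKM, against 111 and 114 FPKM and 47 to 143 FPKM over the 14 other libraries. Whether this library shared the read length and gene annotation of the other 14 is not given in the sources used here. These values may therefore not be comparable with theirs. The same limit holds for every other 3'UTRKO value given above.

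The alpha globin genes gave unlike values: Hba-a2 was listed at 0 in the 3'UTRKO library, against 27 and 41 FPKM in papain controls, while its near-identical neighbour Hba-a1 was at 32 FPKM, against 30 and 46 FPKM. The host gene Snhg9 was at 37 FPKM, against 10 and 4 FPKM in papain controls and 39 and 46 FPKM in naive cells.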
